A study of Mus musculus with 38 samples.

Results

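The 24 libraries described here were RNA-seq libraries of mouse cortical collecting ducts (CCDs) dissected by hand from the kidney, out of 38 libraries in the whole series. They were chosen as every library of one deposited expression table, 3 for each of 8 numbered units named in the sample titles, MT1 to MT4 and WT1 to WT4. The design text of the series gives MT as a mutation of serine 552 of β-catenin, a target site of protein kinase A, and WT as wild type. The labels do not say how the mutation was made, the age or sex of the animals, or whether a unit number stands for one animal. Every one of the 24 libraries, MT and WT, was labelled C57BL/6 and infused for 5 days with dDAVP (desmopressin), which activates the vasopressin receptor V2, whereas the table's own name stated no vasopressin. Genotype was therefore not contrasted, and the question was how far the 3 libraries of a unit differed among themselves, against the differences between units of one genotype. Since nothing says that the 3 libraries came from separate ducts or animals, p-values measure the spread between these libraries, which may be technical. The other RNA-seq table, 4 dDAVP and 4 saline libraries of wild-type mice, is set beside them at the end.

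The CCD is the last cortical part of the nephron's drainage system. Its principal cells take up water through aquaporins under the control of vasopressin and sodium through the epithelial sodium channel. Its intercalated cells handle acid and base: type A cells secrete acid and type B cells secrete bicarbonate through pendrin. A duct dissected by hand is thin and short, and the connecting tubule, thick ascending limb and proximal tubule, with capillaries and macrophages, lie directly against it in the cortex.

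Expression was given as TPM, a measure of transcript abundance scaled to the same total in each library, in which every value is a share of its library, so that a gene that takes more of a library lowers all others. The table held 55416 genes, of which 10557 had a mean of 5 TPM or more and were tested. TPM keeps no record of depth, so depth was unknown; 13556 to 16050 genes per library were above 1 TPM. Xist, the transcript that silences the second X chromosome of females, was at most 0.5 TPM in any library, and the Y-linked Ddx3y was at 18.9 to 28.9 TPM in all 24. The markers of principal and intercalated cells were high throughout: principal cell markers summed to between 22826 and 55191 TPM. In 7 libraries the proximal tubule, thick ascending limb or red blood cell list summed to over 1000 TPM: MT4 libraries 1 and 3, WT1 library 1, WT3 libraries 1 and 2 and WT4 libraries 1 and 3. This set was drawn after the values were seen and serves only to repeat results without it, and every other library held some of these transcripts as well. Without the 7 libraries 17 are left, and MT4, WT3 and WT4 are left with 1 library each, which gives no spread within the unit and a deviation of 0. SDs within units and correlations of deviations then rest on the libraries of the other units. Intraclass correlations then compare single libraries with unit means.

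Most genes varied little among the 3 libraries of a unit. The standard deviation (SD) of log2(TPM + 1) within units had a median of 0.15 over genes, a 1.11-fold change per SD, with quartiles of 0.11 and 0.21 and a 95th percentile of 0.44. The spread was wider in genes of low level: the median SD was 0.24 at 5 to 10 TPM, 0.16 at 10 to 50 TPM, 0.11 at 50 to 500 TPM and 0.11 above 500 TPM. By unit, the median SD was 0.11 in MT1, 0.14 in MT2, 0.10 in MT3 and 0.12 in MT4, against 0.15 in WT1, 0.13 in WT2, 0.13 in WT3 and 0.14 in WT4. The steadiest gene of at least 50 TPM was Ssu72, which encodes a phosphatase acting on RNA polymerase II, with an SD of 0.03. Other genes among the 10 steadiest were M6pr, a mannose 6-phosphate receptor, Psmb2, a proteasome subunit, and Ndufs7, a subunit of respiratory complex I, with SDs of 0.04 each.

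For most genes, units differed less from each other than the libraries within them. The intraclass correlation, the part of a gene's variance that lay between units of one genotype, had a median of 0.27 and quartiles of 0.06 and 0.47. In 20.95% of genes the between-unit variance was the larger of both, and in 2021 genes, or 19.1%, the estimate fell below 0. With one fit over all libraries, 2340 of 10557 genes differed between units within genotype, or 22.2% (limma's moderated F-test, Benjamini-Hochberg adjusted p under 0.05; 4060 genes at an unadjusted p under 0.05). The count was 1177 without unit WT2, 1443 without unit MT4 and 965 without the 7 libraries. Genes of higher level were called more often: 12.6% at 5 to 10 TPM, 21.2% at 10 to 50 TPM, 26.8% at 50 to 500 TPM and 42.6% above 500 TPM.

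Pairs of libraries of one unit correlated slightly more in the median than pairs from different units, but the closest library was often of another unit. Across the tested genes, which are not independent replicates, pairs of libraries of one unit had correlations of 0.945 to 0.977 with a median of 0.966 (24 pairs). Pairs from different units of one genotype had correlations of 0.919 to 0.975 with a median of 0.957 (108 pairs). For 8 of the 24 libraries, the closest library was one of the same unit. It was sought among all the other libraries, of both genotypes, few of which share a library's unit.

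**Figure D1:**
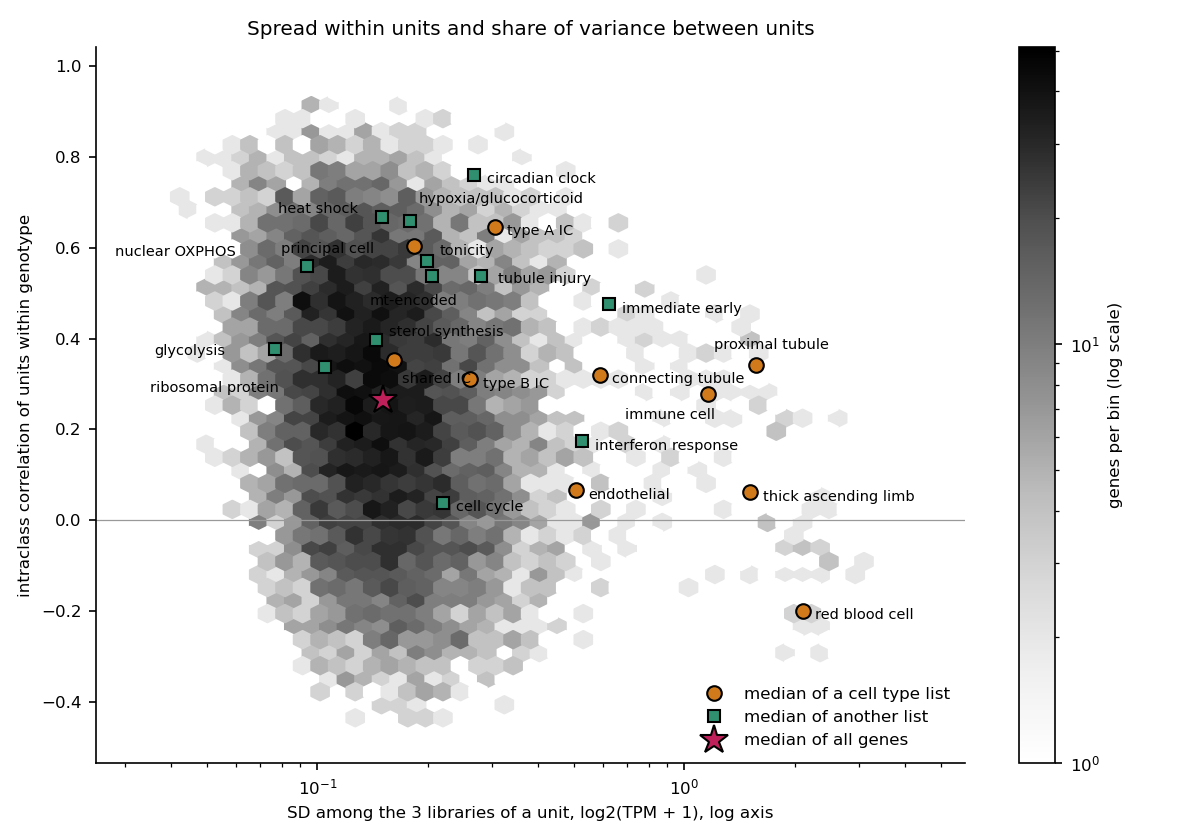
Each bin of the grey background counts genes by their SD within units of log2(TPM + 1) (horizontal, log axis) and their intraclass correlation of units within genotype (vertical); circles are medians of cell type lists, squares are medians of other lists and the star is the median of all 10557 genes. Clock genes stand highest on the vertical axis at 0.76, and red blood cell genes stand farthest right at an SD of 2.11 and below 0 on the vertical axis.

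Among the genes whose units differed most clearly, Tspo and Tmem254a showed steps between units. Tspo, a cholesterol-binding protein of the outer mitochondrial membrane, was at 612, 599.6 and 584 TPM in MT2 and at 616, 626 and 583 TPM in MT4. It was at 1147, 1122 and 1099 TPM in MT1 and at 1118, 1149 and 1129 TPM in MT3, while the 12 libraries of WT1 to WT4 lay between 1059 and 1241 TPM. The 6 libraries of MT2 and MT4 thus lay apart from the other 18, with no value in between (intraclass correlation 0.97, limma adjusted p = 4.83e-09). Tmem254a was split along other units. It was at 271 to 392 TPM in MT1 to MT4, WT1 and WT3, against 645, 649 and 745 TPM in WT2 and 688, 609 and 696 TPM in WT4 (adjusted p = 4.83e-09).

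A further set of 3 genes shared another division of the units. Banp, a nuclear matrix protein that binds DNA, was at 16.3 to 23.2 TPM in MT1 and MT4 and at 20.6 to 33.0 TPM in WT2 and WT3. It was at 39.6 to 53.8 TPM in MT2 and MT3 and at 37.2 to 60.2 TPM in WT1 and WT4 (adjusted p = 1.32e-07). Ajuba, a scaffold protein of cell junctions, was at 66.2 to 113 TPM in MT1, MT4, WT2 and WT3 and at 123 to 187 TPM in MT2, MT3, WT1 and WT4 (adjusted p = 3.9e-08). Tbpl1, a relative of the TATA-binding protein, was at 30.7 to 55.7 TPM in the first 4 of these units and at 59.3 to 130 TPM in the others (adjusted p = 2.04e-06). In these 3 genes the 12 libraries of one set of units did not overlap the 12 of the other. They were picked by smallest p and the division was read from their own values, as for Tspo and Tmem254a, so the separation is only a description. How many of all genes divide the units in these ways was not counted. The 10 genes of smallest p kept an adjusted p under 0.05 in every alternative that tested them. That was likely from the start, since they were picked by p from the same libraries.

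Among the 10 were also genes of hormone response and cell survival. Zbtb16, a transcription factor gene induced by glucocorticoids, ranged from 7.19 TPM in MT4 to 24.4 TPM in WT1, with an adjusted p of 1.55e-06. Mcl1, a protein that holds back apoptosis, was at 60.66 to 62.55 TPM in MT4 and at 117 to 133 TPM in WT1 (adjusted p = 1.59e-06).

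With all 24 libraries, the clock genes held the highest median intraclass correlation of the 27 lists. Without the 7 libraries the median was 0.68 for clock genes and 0.79 for principal cell markers. Circadian clock genes form a feedback loop in which Clock and Arntl (also called Bmal1) switch on the Per and Cry genes and the rhythmic factors Dbp and Tef through the E-box CACGTG, and Nr1d1 and Nr1d2 repress Arntl. Of 15 listed genes 11 were measured, and 10 of the 11 differed between units, all but Cry2, against 22.2% of all genes. Of these 10, 8 passed without unit WT2, where 11.1% of all genes were called, and 5 without the 7 libraries, where 9.15% were. Their median intraclass correlation was 0.76 and their median SD within units was 0.27, against 0.27 and 0.15 over all genes, in the same order. Dbp was at 63.1, 81.0 and 100 TPM in MT1, 45.65, 41.4 and 37.4 TPM in MT2, 44.8, 54.5 and 35.3 TPM in MT3 and 19.95, 27.6 and 23.3 TPM in MT4. It was at 108, 95.6 and 71.6 TPM in WT1, 13.7, 10.4 and 12.6 TPM in WT2, 20.75, 21.7 and 13.2 TPM in WT3 and 66.7, 51.0 and 59.3 TPM in WT4. Dbp was lowest in MT4, WT2 and WT3 and highest in MT1, WT1 and WT4, and the 9 libraries of the low units did not overlap the other 15 (intraclass correlation 0.94, limma adjusted p = 4.78e-08). This split, too, was read from the values themselves.

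Other clock genes followed Dbp or ran against it. Tef was at 29.0 to 42.3 TPM in MT4, WT2 and WT3 and at 40.3 to 85.6 TPM in the other units (adjusted p = 4.21e-05). Nr1d1 was at 48.2 to 87.2 TPM in MT4, WT2 and WT3 and at 92.9 to 253 TPM in the others (adjusted p = 0.000457, and 0.0639 without the 7 libraries). Arntl ran the other way, at 29.0 to 39.3 TPM in MT4, WT2 and WT3, 15.9 to 19.7 TPM in MT1, 23.9 to 33.6 TPM in MT2, 26.2 to 31.2 TPM in MT3, 20.5 to 24.1 TPM in WT1 and 23.3 to 24.6 TPM in WT4 (adjusted p = 0.000142). Within units, the correlations of the clock genes' deviations from the unit mean ranged from -0.56 to 0.79 over 55 pairs of genes, with a median of 0.21. The labels give no time of day for the dissections.

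The promoters of Per1, a core clock gene, and Tef are shown because both hold the E-box CACGTG. In the 250 bases before the start of transcription (RefSeq, GRCm38.p6), searched on both strands, 5 of the 14 clock genes with a promoter in the table held it, against 6.86% of 27025 genes. Such a match is a description of the letters and not a measured binding site. Per1 itself was low, at 1.71 to 7.3 TPM in the MT units and 3.09 to 18.4 TPM in the WT units, highest in WT1 at 18.4, 14.1 and 9.52 TPM (adjusted p = 0.00124, and 0.0665 without the 7 libraries). The sequences run 5′ to 3′ on the strand of the gene, with the E-box in capitals. Per1 lies on the plus strand at chr11:69098699-69098948 and Tef on the plus strand at chr15:81802423-81802672.
Per1: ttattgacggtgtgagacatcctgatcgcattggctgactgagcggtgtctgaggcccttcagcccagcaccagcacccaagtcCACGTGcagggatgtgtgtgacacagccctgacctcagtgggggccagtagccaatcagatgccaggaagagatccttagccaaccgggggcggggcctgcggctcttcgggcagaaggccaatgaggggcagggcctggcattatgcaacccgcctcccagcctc
Tef: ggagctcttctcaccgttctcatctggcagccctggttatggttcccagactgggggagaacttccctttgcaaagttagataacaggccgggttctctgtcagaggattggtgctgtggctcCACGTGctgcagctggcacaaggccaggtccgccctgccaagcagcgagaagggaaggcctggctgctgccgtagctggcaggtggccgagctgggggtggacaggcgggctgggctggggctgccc

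**Figure D2:**
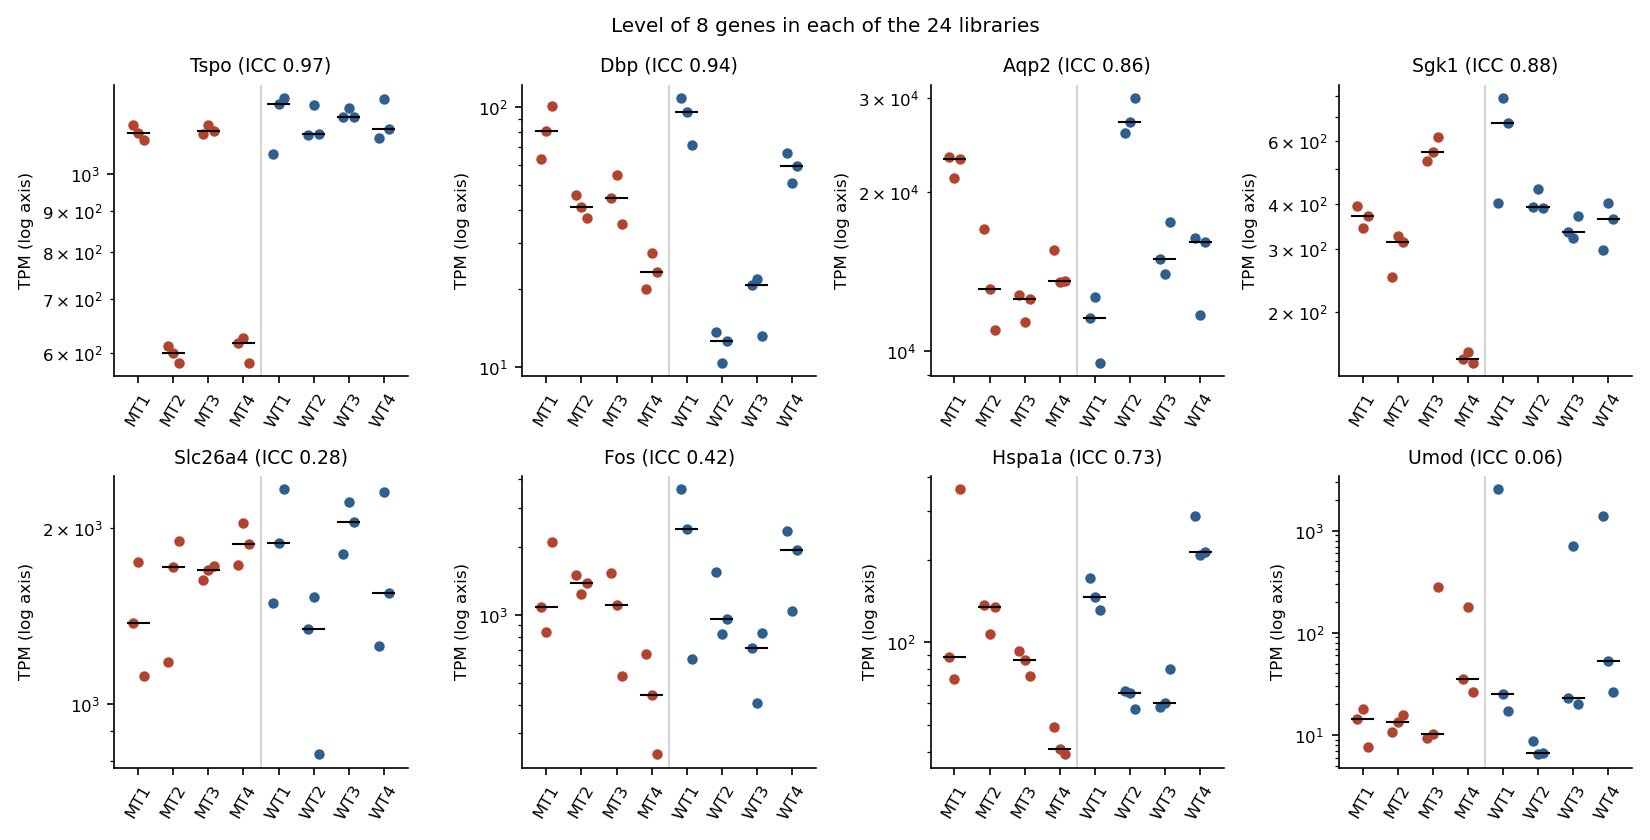
TPM (log axes) of 8 genes in each library, by unit, MT units in red and WT units in blue, with a line at each unit's median. Tspo forms tight groups by unit, and for Dbp and Sgk1 most of the variance lies between units (intraclass correlations of 0.94 and 0.88). The units overlap for Slc26a4, Fos and Umod, with Umod from 6.45 to 2545 TPM.

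Genes that respond to hormones and tonicity also carried much of their variance between units. All 5 measured genes of the tonicity response and osmolyte list differed between units, against 22.2% of all genes, with a median intraclass correlation of 0.57. Without WT2 or without the 7 libraries 2 of the 5 passed, and Nfat5, the transcription factor of the tonicity response, failed in 18 of 43 alternatives. Sgk1, a kinase that raises sodium channel activity, was at 396, 342 and 372 TPM in MT1, 250, 326 and 313 TPM in MT2, 527, 557 and 614 TPM in MT3 and 148, 155 and 145 TPM in MT4. It was at 403, 791 and 672 TPM in WT1, against 299 to 442 TPM in WT2, WT3 and WT4 (adjusted p = 5.4e-06). MT4 lay below every other library, and WT1 held the widest spread. Of 12 hypoxia and glucocorticoid response genes 8 differed, against 22.2% of all genes (8 without WT2 and 5 without the 7 libraries), with a median intraclass correlation of 0.66. Those of this list that did not differ were Ddit4, Slc2a1, Bnip3 and Egln3. Sgk1 is also on the tonicity list and Per1 on the clock list, so the counts of these lists overlap. Of 10 measured sterol synthesis genes 4 differed, with a median intraclass correlation of 0.40. Without MT4, 0 of these 4 passed limma's F-test after adjustment (2 at an unadjusted p under 0.05).

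Of 11 principal cell genes 9 differed between units, against 22.2% of all genes and 42.6% of genes above 500 TPM, a level that 8 of the 11 exceed. Without unit WT2 alone, 2 of the 9 passed, Aqp2 and Avpr2, where 11.1% of all genes were called. Their median intraclass correlation was 0.60 and their median SD within units was 0.18. Aqp2, the vasopressin-regulated water channel of the apical membrane, was at 23206, 21208 and 23077 TPM in MT1, 16982, 13119 and 10956 TPM in MT2, 12761, 11364 and 12525 TPM in MT3 and 15541, 13475 and 13576 TPM in MT4. It was at 11547, 12645 and 9501 TPM in WT1, 25750, 27066 and 30070 TPM in WT2, 14888, 13983 and 17491 TPM in WT3 and 16325, 11721 and 16097 TPM in WT4. MT1 and WT2 lay above all other libraries (intraclass correlation 0.86, adjusted p = 2.58e-05). After quantile normalization, which gives the genes of highest rank the same value in each library, the adjusted p for Aqp2 was 0.815.

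Other principal cell genes had their own patterns. Avpr2, the V2 receptor, was at 1278 to 1369 TPM in MT1 and 1288 to 1733 TPM in WT2, against 620 to 1251 TPM in the other units (adjusted p = 0.000547). Aqp4, a basolateral water channel, was the most variable of the 11 within units, with an SD of 0.64, and reached 634 TPM in WT2 library 3, against 30.5 TPM in WT4 library 2. Scnn1b and Scnn1g, which encode the β and γ chains of the epithelial sodium channel, varied little, with SDs of 0.09 and 0.12. For Scnn1g units did not pass (adjusted p = 0.48), and for Scnn1b they did in the main fit (adjusted p = 0.0393) but not in 17 of 44 alternatives, 10 of them fits that left out 1 library. Ctnnb1, which encodes β-catenin, was at 349 to 431 TPM in MT units and 335 to 422 TPM in WT units, with an SD within units of 0.09 and an adjusted p of 0.55.

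The lists of intercalated cell genes are short, so their counts of called genes say little about a cell type. In bulk ducts, fewer cells of a type and less RNA per cell cannot be told apart. Of 8 markers shared by intercalated cells, 1 differed between units, against 22.2% of all genes and 42.6% of genes above 500 TPM, a level that all 8 exceed. It was Foxi1, their master transcription factor, at 515 to 964 TPM in MT units and 539 to 1066 TPM in WT units (limma adjusted p = 0.000384). Of 5 type A markers 4 differed, with a median intraclass correlation of 0.65, but 1 of these 4 passed without unit WT2 and 1 without the 7 libraries. Of 6 type B markers 1 differed, a share near that of all genes, with a median intraclass correlation of 0.31. It was Hmx2, a transcription factor gene, which failed without WT2, MT1 or MT1 library 3. Slc4a1, the anion exchanger of type A cells, was at 343 to 783 TPM in MT units and 251 to 864 TPM in WT units (adjusted p = 0.01395, and up to 0.189 in the 4 of 44 alternatives that lost the call, which included leaving out WT2 library 3 alone). Slc26a4, which encodes pendrin of type B cells, was at 1377, 1752 and 1115 TPM in MT1, 1178, 1718 and 1901 TPM in MT2, 1631, 1695 and 1720 TPM in MT3 and 1728, 2043 and 1881 TPM in MT4. It was at 1486, 1885 and 2331 TPM in WT1, 1346, 1523 and 820 TPM in WT2, 1808, 2217 and 2048 TPM in WT3 and 1256, 2308 and 1546 TPM in WT4. The units overlapped, and the difference between them did not pass (adjusted p = 0.125).

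The genes closest to a marker within units were found for 7 anchor genes. For each, genes were ranked by the correlation of their deviations from the unit mean over the 24 libraries (n = 24), given here as a description, since the values of each library sum to the same total. Among the genes most like Aqp2 were Avpr2 at 0.93, Gsta3, a glutathione transferase, at 0.90, Fxyd4, a regulator of the sodium pump, at 0.89, Fam174b at 0.89 and Kcnj1, the ROMK potassium channel, at 0.88. Avpr2 and Fxyd4 are principal cell markers of the fixed list, and the 55 pairs of that list had correlations of -0.37 to 0.93 with a median of 0.48. Among those most like Slc26a4 were Hhatl at 0.97, Emb, a partner of membrane transporters, at 0.96, Acot3, a thioesterase, at 0.96 and Tldc2 at 0.95. Among those most like Slc4a1 were Xab2 at 0.93, Lasp1, an actin-binding protein, at 0.91, and Adgrf5, an adhesion receptor known in type A intercalated cells, and Met, the receptor of hepatocyte growth factor, at 0.87 each.

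**Figure D3:**
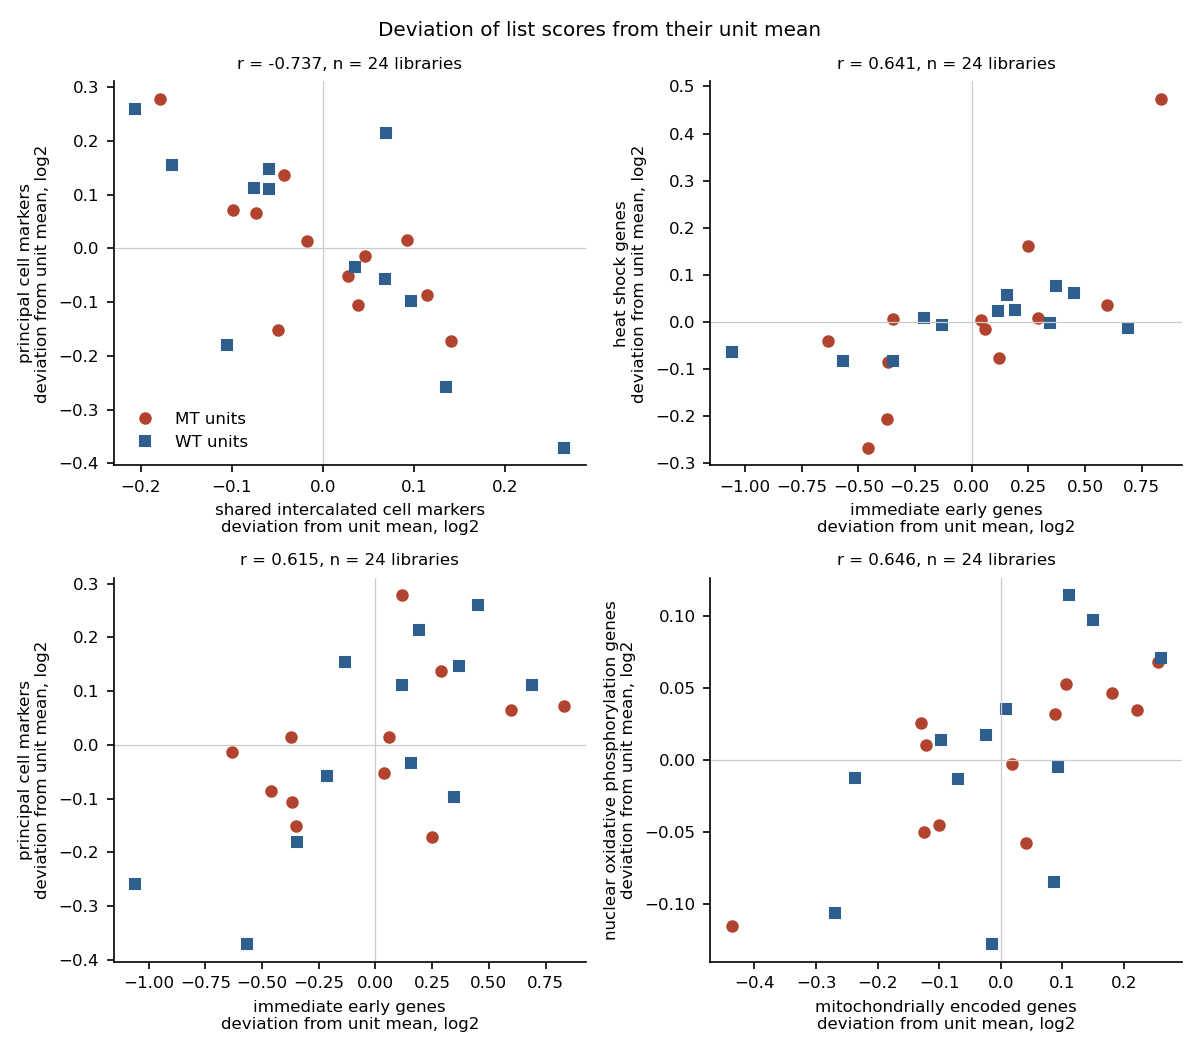
Each point is a library, placed by the deviations of 2 list scores from their unit means (mean log2(TPM + 1) of the list's measured genes), MT units as red circles and WT units as blue squares. Principal cell markers run against shared intercalated cell markers (r = -0.737), and the other 3 pairs run together (r of 0.641, 0.615 and 0.646).

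Where a library held more of the shared intercalated cell markers than its unit, it tended to hold less of the principal cell markers. The deviations of both scores had opposite signs in all but 4 of 24 libraries. Pearson's r was -0.737 (two-sided permutation of libraries within units, 100000 resamples, p = 0.00751, adjusted p = 0.0325 over 13 relations) and Spearman's rho was -0.638 (permutation p = 0.0143, adjusted p = 0.0466). Without the farthest libraries, WT4 library 2 and WT4 library 1, r was -0.593. The call was lost when unit MT2, WT1, WT2 or WT4 was left out (adjusted p = 0.117, 0.074, 0.0833 and 0.0984 by permutation) and in 8 of the 24 fits without 1 library: each library of MT2 and of WT4, WT1 library 3 and WT2 library 3 (adjusted p = 0.0593 to 0.105 by permutation). Type A against type B markers had an r of -0.566 and a rho of -0.56 (permutation p = 0.0344 and 0.0301, adjusted p = 0.0895 and 0.0782; r = -0.391 without MT2 library 1 and WT2 library 3), which did not pass. After rescaling by the median of ratios this pair passed (r = -0.698, adjusted p = 0.0163 by permutation).

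Connecting tubule genes, from the segment just before the CCD, varied widely, with a median SD within units of 0.59 against 0.15 over all genes. Of 6 members, all measured, 1 differed between units, against 22.2% of all genes: Calb1, calbindin-D28k. It was at 225, 169 and 95.7 TPM in WT2, with the lowest unit mean, and between 202 and 435 TPM in the remaining units (SD 0.36, adjusted p = 0.0186). The call was lost without WT2, without WT2 library 3 alone, with no filter and without the 7 libraries, with adjusted p up to 0.234 by limma's F-test. Those most like Calb1 were Tbck at 0.91, Crip1 at 0.89 and Tmem52b, Depdc7 and Gsta5 at 0.88 each, none of them on the connecting tubule list, whose own 15 pairs had a median correlation of 0.16. S100g, calbindin-D9k, was at 3052, 663 and 237 TPM in MT1 and at 516, 3727 and 968 TPM in WT1 (SD 1.34, adjusted p = 0.0709). Klk1, tissue kallikrein, reached 2114 TPM in WT4 library 1 and 1166 TPM in WT1 library 1, against a lowest value of 14.9 TPM in MT1 library 3 (SD 1.40, adjusted p = 0.121). The list of 5 distal convoluted tubule markers had 1 member at 5 TPM or more, Emx1, a homeobox gene. Slc12a3, the sodium-chloride cotransporter that defines that segment, was at 20.3 TPM in MT4 library 1 and 9.84 TPM in WT4 library 1 and at 1.2 TPM or less in the other 22 libraries.

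Some thick ascending limb transcripts, led by Umod and Slc12a1, stood high in single libraries. In the MT units Umod, uromodulin, was at 280 TPM in MT3 library 3 and 179 TPM in MT4 library 2 and at 7.69 to 35.2 TPM in the other 10 libraries. It was at 2545, 25.1 and 17.1 TPM in WT1, 6.45 to 8.7 TPM in WT2, 22.8, 708 and 20.1 TPM in WT3 and 1389, 53.3 and 26.4 TPM in WT4. Slc12a1, the sodium-potassium-chloride cotransporter NKCC2, reached 27.8 TPM in MT3 library 3 and 12.6 TPM in MT4 library 2, with 470 TPM in WT1 library 1, 143 TPM in WT4 library 1 and 80.9 TPM in WT3 library 2. The same 5 libraries held the highest Umod and Slc12a1, and the deviations of the pair correlated at 0.98 over 24 libraries. Egf, epidermal growth factor, at 0.97, Gpx6 at 0.95, Ppp1r1a, a phosphatase inhibitor, at 0.95 and Kng2, a kininogen, at 0.85 came next. The list as a whole was less uniform: its 10 pairs had correlations of -0.20 to 0.98 with a median of 0.39. SDs of its members ranged from 0.13 for Foxq1 to 2.61 for Slc12a1. Of the 5 measured members of the list, 0 differed between units by limma's F-test, against 22.2% of all genes (0 at an unadjusted p under 0.05). The lowest adjusted p by this test was 0.146, for Ptger3, a prostaglandin receptor. The list had a median SD of 1.51 and a median intraclass correlation of 0.06. A wide spread within units lowers such a count, since the F-test divides by it.

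Proximal tubule transcripts varied most in WT3 and MT4. The 20 markers summed to between 27.0 TPM in MT1 library 1 and 7667 TPM in WT3 library 1, with a median of 245 TPM, and 13 of them were measured. Slc34a1, the phosphate transporter NaPi-IIa, was at 90.01, 4.82 and 401 TPM in MT4, against 0.19 to 10.65 TPM in MT1, MT2 and MT3. It was at 601, 571 and 4.98 TPM in WT3, 60.3, 22.9 and 34.8 TPM in WT4, 11.4, 0.8 and 22.8 TPM in WT1 and 2.36, 0.43 and 17.25 TPM in WT2. Units overlapped. Slc34a1 and Pck1, an enzyme of glucose synthesis, passed between units (limma adjusted p = 0.0358 and 0.0338) and 11 members did not, where 22.2% of all genes passed. The call for Slc34a1 was lost in 14 of 44 alternatives, and without the 7 libraries the median intraclass correlation of the list was -0.06, against 0.34 with them.

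Kap, a protein of proximal tubule cells that androgens induce, did not follow Slc34a1 closely. It was at 9.0 to 544 TPM in MT units and reached 3840 TPM in WT3 library 1, against 119 TPM in WT3 library 2, where Slc34a1 was at 571 TPM. Among the genes most like Slc34a1 were G6pc, glucose-6-phosphatase, at 0.96, Ugt2b38, a glucuronosyltransferase, at 0.95, and Acsm2, an acyl-CoA synthetase, and Miox, an oxygenase of inositol breakdown, at 0.94 each.

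**Figure D4:**
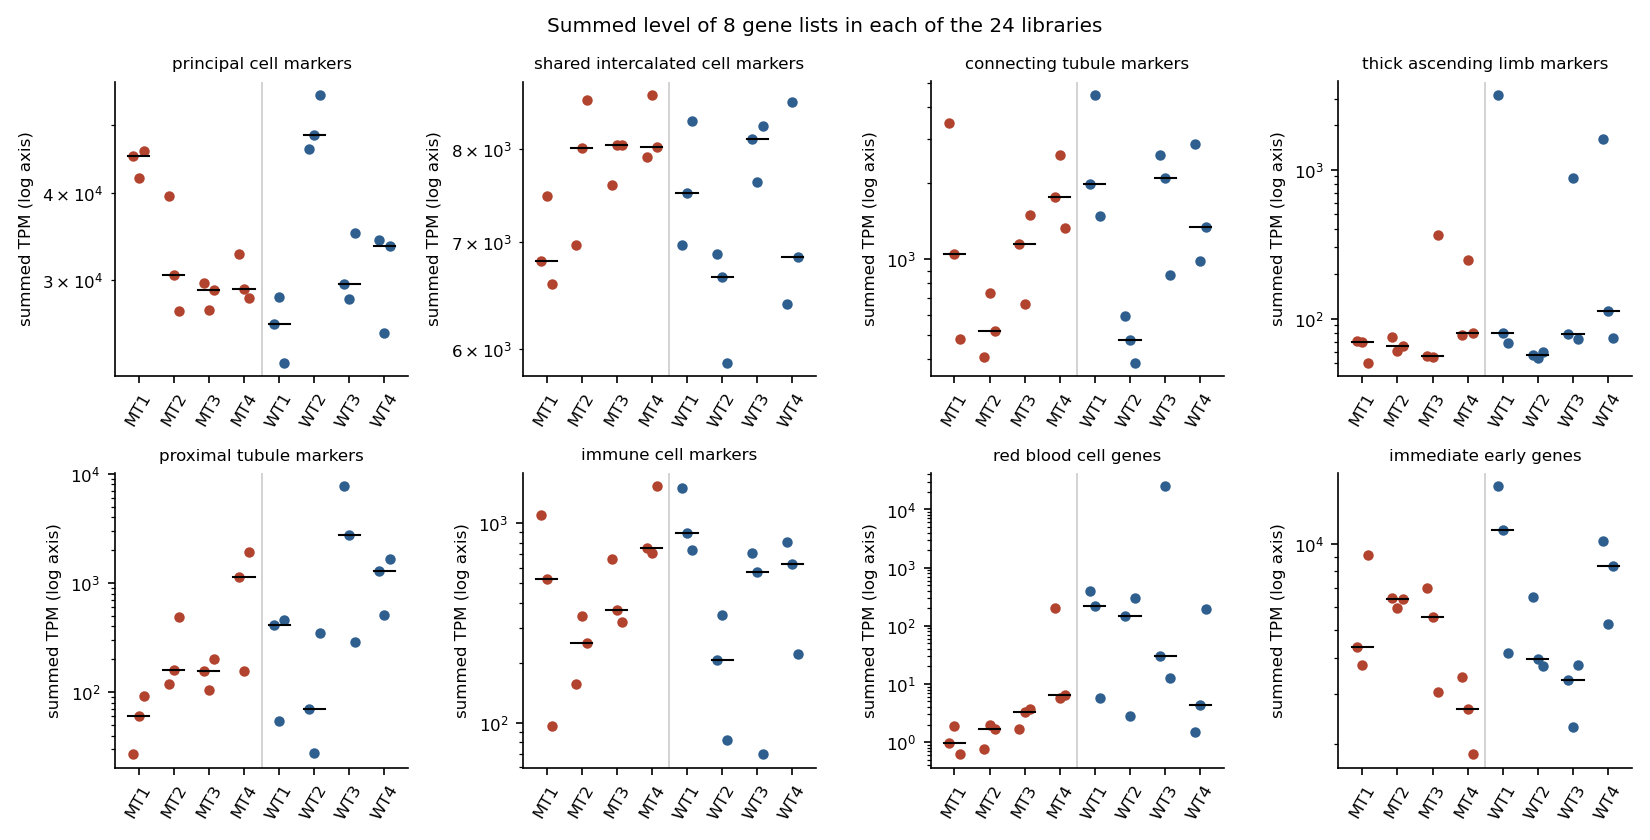
Summed TPM (log axes) of 8 gene lists in each library, by unit, MT units in red and WT units in blue, with a line at each unit's median. The thick ascending limb sum lies near 74 TPM in most libraries and reaches 3179 TPM in WT1 library 1, and the red blood cell sum reaches 24918 TPM in WT3 library 2.

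Blood transcripts varied widely within units. Hbb-bs, a β-globin gene, had the second largest SD of all genes at 3.15. It was at 134 TPM in MT4 library 1 and at 0.15 to 4.76 TPM in the other 11 MT libraries. It was at 15856 TPM in WT3 library 2, 271 TPM in WT1 library 1 and 188 TPM in WT2 library 3, and at 1.16 TPM or lower in 2 WT libraries. The 5 red blood cell genes summed to 24918 TPM in WT3 library 2, against a median of 5.04 TPM. Their median intraclass correlation was -0.20, and 0 differed between units by limma's F-test, against 22.2% of all genes (0 at an unadjusted p under 0.05). Their wide spread within units lowers this count, since the F-test divides by it. The globin genes are near-identical copies, and how the counting divided reads among them was not stated.

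Macrophage genes moved as a block. C1qb, a complement subunit made by macrophages, was at 65.1, 34.1 and 0.19 TPM in MT1 and at 23.8, 33.5 and 2.9 TPM in WT3. Over the 11 measured immune cell markers the median SD was 1.16 and the median intraclass correlation was 0.28, close to that of all genes. The median correlation of deviations was 0.87 over 55 pairs, against 0.03 over all gene pairs. Of these 11 markers, 1 differed between units, against 22.2% of all genes. Ptprc, the leukocyte antigen CD45, was the member that differed between units, and it failed without WT2, without MT4 and without the 7 libraries. Immunoglobulin transcripts were high in fewer libraries. Igha, the IgA heavy chain, was at 901 TPM in MT3 library 1, 627 TPM in MT4 library 1 and 9.13 TPM in WT4 library 3, and at 0.22 TPM or less in the other 21. Igkc, the κ light chain, was at 865 TPM in MT3 library 1, 3.95 TPM in MT4 library 1 and 22.0 TPM or less in the WT libraries. The neutrophil gene S100a9 was at 315 TPM in MT4 library 1 and 57.35 TPM in WT3 library 2, and at most 29.3 TPM elsewhere.

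Endothelial genes also moved together, with a median correlation of 0.81 over 28 pairs. Of the 8 measured, 0 differed between units by limma's F-test, against 22.2% of all genes (1 at an unadjusted p under 0.05, Plvap, a protein of capillary walls). Their median SD was 0.51 and their median intraclass correlation was 0.07, but 0.57 without the 7 libraries. Podocyte markers had no member at 5 TPM or more and summed to between 2.48 and 9.97 TPM. Of 11 stromal markers 1 was measured, Dcn, a matrix proteoglycan, at 21.6 to 37.0 TPM in MT1 and 18.65 to 50.7 TPM in WT2, against 42.7 to 101 TPM in the remaining units (adjusted p = 0.00509).

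**Figure D5:**
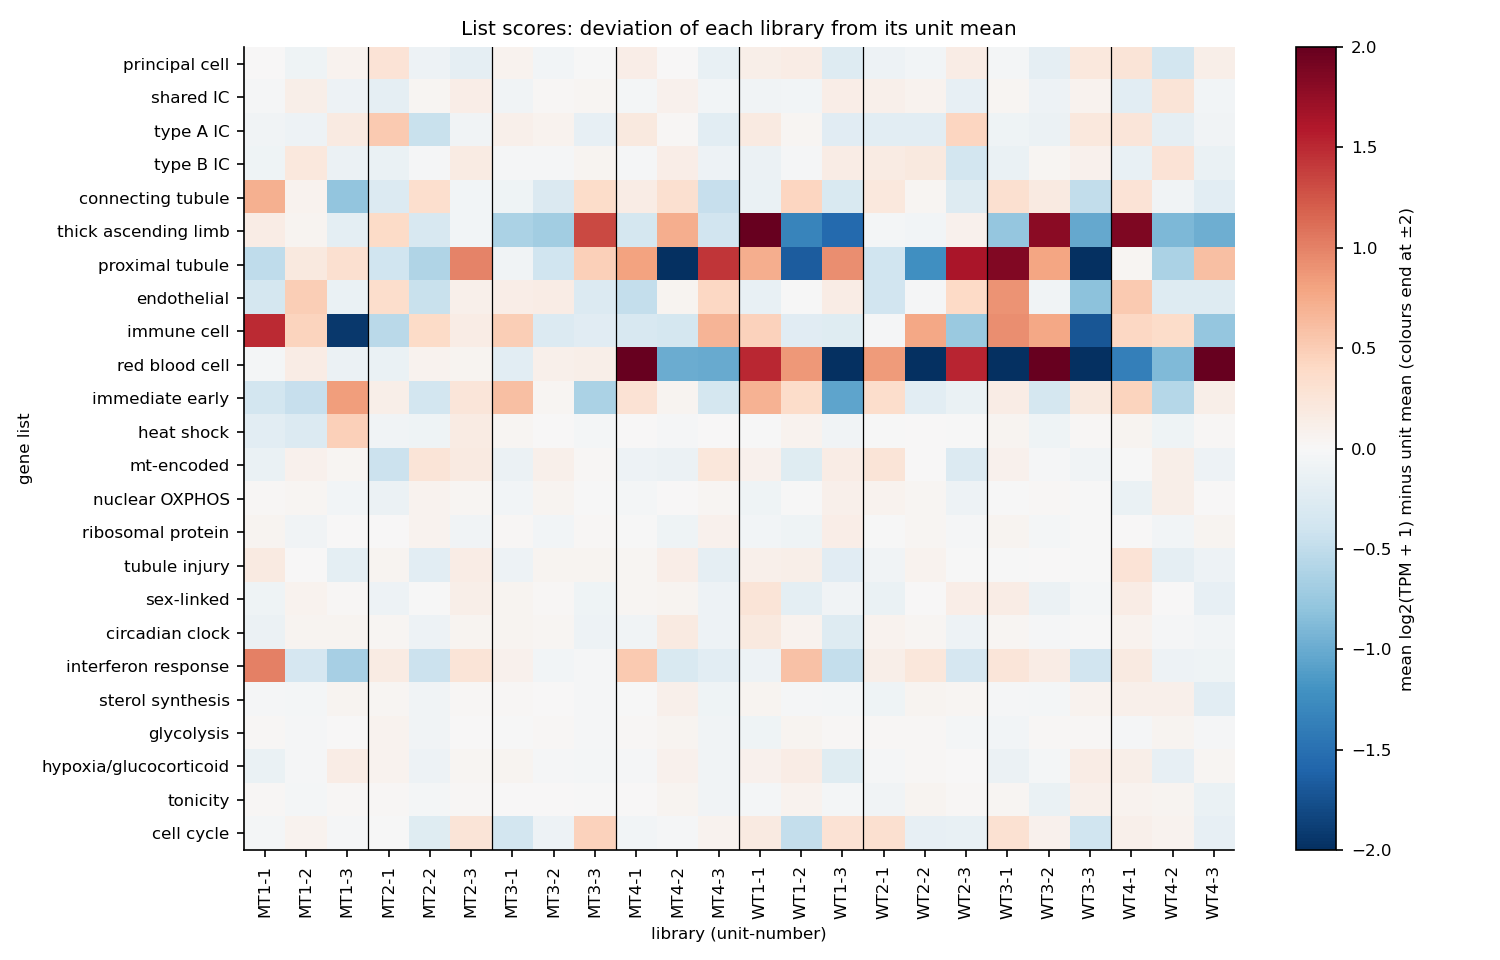
Each cell is the deviation of a list's score (mean log2(TPM + 1) of its measured genes) from the mean of its unit, with lists down the page and the 24 libraries across, grouped by unit; red is above the unit mean and blue below. The thick ascending limb, proximal tubule, immune cell and red blood cell rows hold the deepest colours, and the glycolysis and ribosomal protein rows are nearly white.

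Immediate early genes varied widely both within and between units. These genes, of which Fos is the best known, are switched on within minutes by growth factors, stress and tissue handling, through serum response factor, which binds the CArG box, and through CREB, which binds TGACGTCA. Of 20 listed genes 18 were measured, and 14 differed between units against 22.2% of all genes. All 18 lay above the median gene both in SD, with a list median of 0.63, and in intraclass correlation, with a list median of 0.48. Fos was at 1085, 839 and 2109 TPM in MT1, 1512, 1246 and 1392 TPM in MT2, 1544, 1106 and 538 TPM in MT3 and 669, 440 and 241 TPM in MT4. It was at 3616, 2400 and 641 TPM in WT1, 1549, 825 and 959 TPM in WT2, 712, 406 and 830 TPM in WT3 and 2364, 1044 and 1946 TPM in WT4. MT4 and WT3 were low, while WT1 spanned most of the range by itself.

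The call between units was weak for Fos and firm for Atf3. Fos passed in the main fit (adjusted p = 0.0462) and failed in 26 of 44 alternatives, 16 of which each omitted a single library; the highest adjusted p was 0.521. Atf3, a stress-induced transcription factor, was at 2.28 to 3.66 TPM in MT4 and 6.95 to 8.21 TPM in WT2, against 46.2 to 177 TPM in MT2 and 75.75 to 249 TPM in WT4 (adjusted p = 0.0001005), and passed in all 44. Of the 14 called members 7 passed without WT2, 5 without MT4 and 2 without the 7 libraries. Without the 7 libraries, which leaves the low MT4 and the high WT4 with 1 library each, the median intraclass correlation of the list was 0.04. Among those 7, WT1 library 1 and WT4 library 1 had sums of immediate early genes of 15820 and 10174 TPM, which ranked 1 and 3 of 24, and MT4 library 3 had the lowest, 1844 TPM.

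Within units these genes moved together, with a median correlation of 0.81 over 153 pairs. The genes most like Fos were Zfp36, which destabilises messenger RNAs, at 0.98, Junb, a partner of Fos, at 0.97, Ier2 at 0.96, Btg2, which slows the cell cycle, at 0.95 and the zinc finger factor Egr1 at 0.95. Zfp36 was at 82.0 to 450 TPM in MT units and 79.0 to 1022 TPM in WT units. Btg2 was at 154 to 622 TPM in MT units and 151 to 1097 TPM in WT units, and both had their highest value in WT1 library 1, as Fos did.

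The promoters of Zfp36 and Btg2 are shown as they hold the sites by which such genes are known to be induced. Of 16 listed genes with a promoter in the RefSeq table, 2 held a CArG box, Zfp36 and Egr2, against 1.62% of 27025 genes, and 2 held TGACGTCA, Btg2 and Dusp1, against 1.77%. Both motifs were searched on both strands in the 250 bases before the start, GRCm38.p6. Zfp36 lies on the minus strand at chr7:28379229-28379478 with the CArG box in capitals, and Btg2 on the minus strand at chr1:134079156-134079405 with TGACGTCA in capitals.
Zfp36: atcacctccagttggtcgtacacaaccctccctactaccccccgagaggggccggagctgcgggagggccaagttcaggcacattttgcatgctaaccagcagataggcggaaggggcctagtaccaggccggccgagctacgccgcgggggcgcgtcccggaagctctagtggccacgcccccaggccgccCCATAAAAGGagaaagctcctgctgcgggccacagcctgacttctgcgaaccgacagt
Btg2: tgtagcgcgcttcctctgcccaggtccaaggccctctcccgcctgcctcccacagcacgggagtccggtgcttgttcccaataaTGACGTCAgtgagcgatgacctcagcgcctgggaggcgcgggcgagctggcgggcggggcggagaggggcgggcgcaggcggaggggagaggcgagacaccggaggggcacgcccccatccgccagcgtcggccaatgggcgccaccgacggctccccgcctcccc

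Heat shock genes carried more of their variance between units. They encode chaperones that rise when heat or damage unfolds proteins, through heat shock factor binding to repeats of GAANNTTC. Of 12 measured genes 9 differed between units, against 22.2% of all genes, and 6 of these passed without WT2 and 3 without the 7 libraries, with a median SD of 0.15 and a median intraclass correlation of 0.67. Hspa1a, the inducible chaperone Hsp70, was at 88.6, 73.8 and 361 TPM in MT1, 137, 108 and 134 TPM in MT2, 93.25, 86.4 and 75.7 TPM in MT3 and 49.3, 41.1 and 39.15 TPM in MT4. It was at 172, 146 and 131 TPM in WT1, 66.8, 65.2 and 57.1 TPM in WT2, 58.0, 60.1 and 80.0 TPM in WT3 and 289, 208 and 214 TPM in WT4. MT1 library 3 stood apart from its unit, and MT4 and WT4 lay at opposite ends (adjusted p = 0.000945, and 0.119 without the 7 libraries).

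Hspa1b, the neighbouring copy of the gene, was at 46.2 to 464 TPM in MT units and 74.97 to 298 TPM in WT units, also highest in MT1 library 3. The pair is nearly identical in sequence, so the division of reads between both copies is uncertain. Their promoters, shown for that reason, matched at 247 of 250 positions. Each holds GAANNTTC, in capitals, and 6 of the 9 heat shock genes with a promoter in the table held it, against 7.73% of 27025 genes. Hspa1a lies on the minus strand at chr17:34972157-34972406 and Hspa1b on the minus strand at chr17:34959239-34959488, in GRCm38.p6, and both strands were searched.
Hspa1a: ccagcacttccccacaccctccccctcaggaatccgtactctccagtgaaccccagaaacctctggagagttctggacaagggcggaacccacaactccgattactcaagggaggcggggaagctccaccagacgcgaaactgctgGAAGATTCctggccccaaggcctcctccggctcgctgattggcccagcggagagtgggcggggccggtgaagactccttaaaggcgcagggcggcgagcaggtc
Hspa1b: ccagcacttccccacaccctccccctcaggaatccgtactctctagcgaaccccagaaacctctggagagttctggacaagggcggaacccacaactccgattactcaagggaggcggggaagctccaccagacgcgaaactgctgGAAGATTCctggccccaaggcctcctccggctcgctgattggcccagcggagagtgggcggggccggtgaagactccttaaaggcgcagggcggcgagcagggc

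A library above its unit in immediate early genes tended to be above it in heat shock genes too, with the same sign in 18 of 24 libraries. Pearson's r was 0.641 and Spearman's rho 0.744 (permutation p = 0.00083 and 0.00049, adjusted p = 0.0108 and 0.00637), and r was 0.615 without WT1 library 3 and MT1 library 3. This relation kept adjusted p under 0.05 in every alternative run. Immediate early genes also ran with principal cell markers, with the same sign in 18 of 24 libraries (r = 0.615, rho = 0.581, permutation p = 0.00401 and 0.00676, adjusted p = 0.0261 and 0.0293). There r was 0.567 without the same libraries, and 0.458 without the 7 libraries (adjusted p = 0.497 by permutation). The call was also lost without unit WT1 or WT4 (adjusted p = 0.074 and 0.0823 by permutation) and without WT1 library 3 or WT4 library 2 (adjusted p = 0.0798 and 0.0892 by permutation).

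Genes of respiration varied together, the nuclear ones little and the mitochondrially encoded ones more than the median gene. The 22 nuclear genes of oxidative phosphorylation had a median SD of 0.09, and 16 differed between units, with a median intraclass correlation of 0.56. That stands against 22.2% of all genes and 42.6% of genes above 500 TPM, a level that 16 of the 22 exceed, and 4 of the 16 passed without WT2, 6 without MT4 and 5 without the 7 libraries. The mitochondrially encoded genes had a median SD of 0.21, and 5 of the 7 measured differed between units, of which 2 passed without WT2 and 0 without the 7 libraries by limma's F-test (3 at an unadjusted p under 0.05). These 5 of 7 stand against 22.2% of all genes and 42.6% of genes above 500 TPM, a level that all 7 measured exceed. The other 6 of the 13 listed, mt-Co2, mt-Co3, mt-Atp6, mt-Atp8, mt-Nd3 and mt-Nd4l, were listed at 0 in every library, although every cell uses them. The scores of both lists ran together within units, with the same sign in 16 of 24 libraries (r = 0.646, rho = 0.694, permutation p = 0.0128 and 0.00431, adjusted p = 0.0415 and 0.028). Without MT2 library 1 and WT2 library 3, r was 0.483, and the call was lost without MT2, MT3, MT4, WT2 or WT4 and in 13 of the 24 fits without 1 library (adjusted p = 0.052 to 0.202 by permutation): each library of MT2 and of WT2, MT1 library 2, MT3 libraries 1 and 2, MT4 libraries 1 and 3, WT1 library 3 and WT4 library 2. mt-Nd1, a subunit of complex I, was at 4059 to 8963 TPM in MT units, highest in the libraries of MT4, and 3240 to 5978 TPM in WT units, lowest in WT2 library 3 (adjusted p = 0.0182, and up to 0.265 in the 5 of 44 alternatives that lost the call).

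Glycolysis and ribosomal protein genes were steady, like the nuclear genes of respiration, with median SDs of 0.08 and 0.11. Of 13 glycolysis genes 2 differed between units, Ldha and Ldhb, the subunits of lactate dehydrogenase, and both failed without WT2. Of 22 ribosomal protein genes 1 differed, Rpl26, and it failed without WT2, without MT4 and without the 7 libraries. Of 11 measured interferon response genes 3 differed, a share near the 22.2% of all genes, with a median SD of 0.53, and Isg15, a ubiquitin-like protein induced by interferon, was at 31.2, 6.56 and 4.67 TPM in MT1 and 10.35, 34.2 and 7.85 TPM in WT1. Of 7 measured tubule injury genes 4 differed, of which 1 passed without WT2, among them Lcn2, an iron-siderophore carrier of injured tubules, at 38.6 to 209 TPM in MT units and 26.25 to 385 TPM in WT units, highest in WT2 library 3 (adjusted p = 0.00388, and 0.0991 without WT2).

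Apart from type A against type B, 8 other relations of the 13 tested did not pass. Among them proximal tubule and thick ascending limb markers did not go together in a detectable way (r = 0.146, rho = 0.0626, permutation p = 0.664 and 0.81, adjusted p = 0.72 and 0.81; r = 0.144 without WT3 library 3 and MT4 library 2). Nor did proximal tubule and principal cell markers (r = -0.197, rho = -0.154, permutation p = 0.429 and 0.566, adjusted p = 0.557 and 0.669; r = -0.0637 without the same libraries). Distal convoluted and connecting tubule markers had an r of 0.535 and a rho of 0.51 (permutation p = 0.0484 and 0.0545, adjusted p = 0.105 and 0.118; r = 0.532 without WT1 library 2 and WT1 library 1). The distal convoluted score rests on Emx1 alone. With the replicate block by library number this pair passed (r = 0.628, adjusted p = 0.0239 by permutation).

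The largest spreads belonged mostly to small RNA genes and predicted gene models. Of the 100 genes of largest SD, 37 were small RNA genes, 39 were predicted gene models or genes with no symbol, and 24 were others, and 1 of the 100 differed between units. The largest SD of all, 3.18, was that of the small nucleolar RNA gene Snora30, at 0 to 82.0 TPM in MT units and 0 to 255 TPM in WT units. Of the 199 genes with an SD above 1, 13 differed between units, or 6.53%, against 22.2% of all genes. Both counts are low in part by the choice of genes, since the F-test divides by the spread within units. In the principal components of the deviations, with small RNA, predicted and unnamed genes left out, the first held 20.4% of the variance, led on one side by Slc34a1, Acsm2 and Hbb-bs. The second held 14.7%, with Ugt2b38, Lyz2 and again Slc34a1 on one side and Egf, Slc12a1 and Umod on the other.

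Of the 1000 genes of largest SD, 521 fell into 16 modules by clustering of their deviations, a description without a test. Module 1, of 141 genes, was led by Cldn19, the histone genes H1f4 and H2bc6 and Dusp1, and was highest in MT2 library 1 and WT4 library 1. Module 2, of 80 genes, held 10 proximal tubule markers, module 4, of 46 genes, held 13 immediate early genes, and module 5, of 40 genes, held 8 endothelial markers. Module 6, of 26 genes, held 9 immune cell markers and was highest in MT1 library 1, as was module 7, of 22 genes, with 8 interferon response genes. Module 8, of 18 genes, joined Egf, Slc12a1 and Umod with Klk1, and was highest in WT1 library 1. Module 11, of 14 genes, held Kap and Cyp2e1 apart from module 2 and was highest in WT3 library 1.

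Set beside these 24 libraries, the other RNA-seq table spread more widely for most genes, but not for every list. For the 5023 genes in both tables, the median SD was 0.12 among the 3 libraries of a unit and 0.15 for differences within and between units together. Among 4 dDAVP libraries it was 0.28 and among 4 saline libraries 0.42, and 0.39 pooled over both groups. The SD was larger in the dDAVP table than within units for 4862 of these genes, or 96.8%. The same count against the spread within and between units together was not taken. The titles carry the same CCD number for all 24 libraries, but a different one for each library within a group of the dDAVP table. Spread within a unit and within such a group may therefore not be of one kind. For 13 immediate early genes in both, the median SD was 0.84 within and between units together and 1.51 in the dDAVP table, and for 11 proximal tubule markers it was 1.99 and 1.59. In the same order it was 0.32 and 0.30 for principal cell markers and 0.351 and 0.348 for type B markers. It was 0.30 and 0.27 for mitochondrially encoded genes and 0.72 and 0.52 for tubule injury genes. The remaining lists compared were wider in the dDAVP table. The tables were normalised separately, and the dDAVP table lists only genes above 10 TPM in all of its libraries, so these values stand side by side with no test.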

How the data were processed

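TPM per gene was deposited by the authors for 24 libraries. Per the labels' protocols, cDNA came from the SMARTer V4 kit and sequencing libraries from Nextera XT. STAR, RSEM and the build mm10 are named in the submitters' processing notes, without versions of the tools. The dDAVP table also held 8 log2 columns deposited by the authors that repeat its libraries, which were not used. Depth is unknown, so no counting interval was given.

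Values were taken as log2(TPM + 1) for genes with a mean of 5 TPM or more. One limma 3.58.1 fit in R 4.3.3 (eBayes with a trend, a mean for each of the 8 units, 16 residual degrees of freedom) tested the differences among MT units and among WT units together (6 degrees of freedom), two-sided, with Benjamini-Hochberg adjustment over all genes and a threshold of 0.05. The fit was tested on simulated data. Intraclass correlations came from the mean squares of units within genotype and were not truncated at 0. List scores were means over measured members, and their deviations from unit means were correlated in 13 pairs, with libraries permuted within units (Python 3.11.15, scipy 1.17.1). The members and the 27 lists were chosen with earlier results of these data known.

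Named genes are a fixed set, the 10 of largest and smallest SD and of smallest p, leading genes of components, 5 neighbours of each anchor and up to 4 members of largest SD per list; Arntl, Tef, Foxi1 and Igkc were named after their values were seen, as were members given as the 5 or fewer called in a list. Predicted models are given as counts, with no names. A symbol shared by several gene IDs was kept for the ID at 5 TPM or more where only 1 reached it. Some genes that this rule names are not reported here.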

Additional observations from a re-analysis of the deposited data

Results flagged for a closer look

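Unit means of list scores, the mean log2(TPM + 1) of a list's measured genes, were looked at in 52 groups of 4 units, and in 6 of them 1 unit lay far from the other 3 of its genotype, where chance alone gives about 1 group in 20. The principal cell score was 10.2 in WT2, against 9.44 to 9.57 in the other WT units, and the type B intercalated cell score was 7.90 in WT2, against 8.27 to 8.33. The stromal score, which rests on Dcn alone, was 4.88 in MT1, against 6.09 to 6.29 in the other MT units, and 5.07 in WT2, against 6.12 to 6.30 in the other WT units. The red blood cell score was 1.91 in MT4, against 0.27 to 0.54 in the other MT units. The score of the sex-linked genes was 4.28 in WT3, against 4.52 to 4.57 in the other WT units.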

How the results depend on the processing

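The number of genes that differed between units lay between 1769 and 2447 when each library was left out in turn, against 2340 with all 24. It was 1443 without unit MT4, 1177 without unit WT2, 1416 with no filter on low values, and 965 without the 7 libraries rich in proximal tubule, thick ascending limb or red blood cell transcripts, an alternative chosen after seeing the data that leaves MT4, WT3 and WT4 with 1 library each. The median within-unit SD was 0.13 with a pseudocount of 5, 0.19 for genes of 1 TPM or more and 0.13 for genes of 20 TPM or more. With no filter the median intraclass correlation was 0.0719 and the share of genes with the larger variance between units was 8.34%.

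For genes of 20 TPM or more, the median SD was 1.34 for connecting tubule markers and 0.49 for tubule injury genes. With a pseudocount of 5 it was 0.22 for tubule injury genes and 0.37 for interferon response genes. After quantile normalization it was 0.12 for glycolysis genes. Without the 7 libraries the median intraclass correlation was -0.0571 for proximal tubule markers, 0.57 for endothelial markers and 0.0371 for immediate early genes. The cause of these shifts was not tested.

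Among the relations, type A against type B markers passed after rescaling by the median of ratios (r = -0.698). Distal convoluted against connecting tubule markers passed with the replicate block by library number (r = 0.628). Mitochondrial against nuclear oxidative phosphorylation genes did not pass after quantile normalization (r = 0.586), or without unit MT2 (0.520), MT3 (0.631), MT4 (0.651), WT2 (0.574) or WT4 (0.724). Shared intercalated against principal cell markers did not pass without unit MT2 (r = -0.681), WT1 (-0.706), WT2 (-0.717) or WT4 (-0.584). Immediate early genes against principal cell markers did not pass without unit WT1 (r = 0.520) or WT4 (0.552), or without the 7 libraries (0.458). With each library left out in turn, r ranged between 0.522 and 0.736 for the mitochondrial pair, -0.861 and -0.599 for the intercalated and principal pair, 0.511 and 0.684 for immediate early genes and principal cells, and -0.682 and -0.384 for type A and type B, which passed without WT3 library 3 (-0.627).

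Deviations of same-numbered libraries of different units correlated at a median of 0.02 over 84 pairs, 20 of them over 0.1. For libraries of different units with different numbers the median was 0.0017 over 168 pairs, 19 of them over 0.1. Whether library numbers pair the libraries was not tested. With the replicate block 2448 genes differed between units. Depth is unknown, so what it limits could not be given.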
